A study of Rattus norvegicus with 13 samples.

Results

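The mRNA levels of 10 genes of the integrin and costamere machinery were followed in whole rat hearts: Itga5, Itga7 and Itgb1, which encode integrin subunits, Itgb1bp2, Vcl, Tln1 and Tln2, whose proteins bind integrin tails or the actin behind them, and Ilk, Parva and Lims2, whose proteins form the complex of integrin-linked kinase. The members are the listed gene names, with no threshold on measured values, though they were chosen with earlier results of these data known. All 10 of 10 were found in every table, among 25600 names at 2 months and 38600 names at 6 and 8 months, and all 10 passed the filter on low counts in every comparison. ST denotes sonogenetic hearts of genotype MscL-G22S, transduced with AAV2/9-cTnT-MscL-G22S-mCherry. Sonogenetics uses ultrasound to act on cells through an introduced protein, here MscL, a bacterial channel opened by membrane tension, in its G22S form with the fluorescent protein mCherry as a tag. The cTnT promoter, that of cardiac troponin T, is active in heart muscle cells. WT hearts carry the treatment label none. ST hearts had 2, 3 and 3 replicates at 2, 6 and 8 months, and WT hearts had 2 and 3 replicates at 2 and 6 months. The labels call them biological replicates, do not say whether months are age or time after transduction, and give no ultrasound exposure and no control virus, so the virus, mCherry and the channel cannot be told apart. No WT hearts of 8 months were analysed here, so time and channel cannot be told apart in a comparison of ST hearts of 8 months with WT hearts of 6 months.

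Costameres are rib-like anchoring sites that join the Z-discs at the edge of a muscle fibre to the membrane and to the matrix outside. Integrins, pairs of one alpha and one beta subunit, grip the matrix there. Talin binds the beta tail and activates the integrin, vinculin clamps talin to actin, and the kinase-like scaffold ILK holds a PINCH protein (Lims1 or Lims2) and a parvin (Parva, Parvb) on the inner side of the same tail. In the heart, the alpha7 subunit (Itga7) is the main laminin receptor of mature cardiomyocytes, while alpha5 (Itga5) binds fibronectin. Melusin, the product of Itgb1bp2, is a striated muscle protein that binds the beta1 tail.

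Libraries held 4.70 to 11.3 M expected counts (M stands for a factor of 1e6). The channel transcript had 127 and 94 counts in the ST libraries of 2 months, 1321, 767 and 1667 in those of 6 months, and 752, 610 and 1003 in those of 8 months, against 0 in all WT libraries, as the labels require. Scaled to a library of 1 M, it averaged 172 ± 67.7 counts at 6 months and 152 ± 34.2 at 8 months (SD, n = 3 each). The scaled values of 6 months were 203.6, 94.2 and 218 in ST replicates 1, 2 and 3. In the tables of 6 and 8 months, ST replicate 2 of 6 months stood apart from its group: the chi-square of counts per gene was 6.89 and 8.67 in its pairs, against 1.93 between ST replicates 1 and 3. WT replicate 1 of 6 months also stood apart, with 8.49 and 7.51, against 2.13 between WT replicates 2 and 3. At 2 months the chi-square per gene was 12.1 between the ST libraries, the largest value of any group, and 7.68 between the WT libraries. This measure can grow with depth, and the ST libraries of 2 months held 11.3 and 8.52 M counts, so it does not rank groups of unlike depth. No pair of libraries differed by as little as sampling noise. Cardiomyocyte markers summed to 93150 to 94990 CPM (counts scaled to a library of 1 M) in ST hearts of 8 months, 81600 to 87000 CPM in ST hearts of 6 months and 90170 to 96470 CPM in WT hearts of 6 months, and none of them was at 0. That sum is carried by Myh6, the alpha myosin heavy chain, which averaged 38960 CPM in ST hearts, against 53820 CPM in WT hearts of 6 months and fell by 0.46, while Tnnt2 and Actc1, troponin T and cardiac actin, each rose by 0.27 there. Because the RNA is from whole tissue, fewer cells of a type and less RNA per cell cannot be told apart.

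Promoter sequence from RefSeq (GRCr8) was at hand for 8 of the 10 genes, not for Itga7 and Parva. The 250 bases before the start are shown for Itga5, Itgb1 and Tln1, the members with the largest rises in ST over WT hearts of 6 months. Those of Tln2 are shown because only it was lower by the test in ST hearts of 8 months against both groups of 6 months. All are printed 5′ to 3′ on the gene's strand (plus for Itgb1, minus for the others). Capitals mark a match to the TEAD motif.
Itga5 (chr7:136381306-136381555): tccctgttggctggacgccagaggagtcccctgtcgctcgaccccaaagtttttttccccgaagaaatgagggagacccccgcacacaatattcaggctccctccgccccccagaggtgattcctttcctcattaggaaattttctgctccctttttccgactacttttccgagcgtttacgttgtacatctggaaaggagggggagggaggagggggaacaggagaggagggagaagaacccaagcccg
Itgb1 (chr19:73602027-73602276): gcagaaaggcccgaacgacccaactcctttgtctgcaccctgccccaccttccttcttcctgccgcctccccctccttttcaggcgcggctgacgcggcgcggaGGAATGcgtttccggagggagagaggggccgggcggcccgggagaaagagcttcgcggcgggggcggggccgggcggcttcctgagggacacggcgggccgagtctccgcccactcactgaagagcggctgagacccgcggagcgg
Tln1 (chr5:62613688-62613937): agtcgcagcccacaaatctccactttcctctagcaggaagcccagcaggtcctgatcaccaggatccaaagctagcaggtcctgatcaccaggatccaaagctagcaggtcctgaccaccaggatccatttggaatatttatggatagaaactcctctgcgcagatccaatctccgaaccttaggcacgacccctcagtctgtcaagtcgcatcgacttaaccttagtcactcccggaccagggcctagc
Tln2 (chr8:77133362-77133611): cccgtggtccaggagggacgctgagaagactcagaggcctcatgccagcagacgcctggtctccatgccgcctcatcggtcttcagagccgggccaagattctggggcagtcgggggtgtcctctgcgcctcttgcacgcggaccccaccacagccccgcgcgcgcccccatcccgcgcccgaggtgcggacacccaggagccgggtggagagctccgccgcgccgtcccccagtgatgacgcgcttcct

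The motifs searched on both strands in the 250 bases before the start were AP-1 (TGANTCA), TEAD (CATTCC), the E-box (CACGTG) and the CArG box, which serum response factor binds. The TEAD letters were found for Itgb1, Vcl and 1 of 2 Lims2 promoters, against 12.1% of 33469 rat promoters of the same length. No member's promoter held the AP-1, CArG or E-box letters, which 6.34%, 1.5% and 5.59% of all promoters held. The promoter of Itgb1 had 71.2% G and C bases and that of Tln2 70.8%, against 55.6% for Itga5 and 53.2% for Tln1. A match describes letters in this window only.

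At 6 months the receptor genes split. Itga5 had 119.8, 129.5 and 132.9 CPM in ST hearts, against 89.7, 81.4 and 82.2 CPM in WT hearts. The 3 ST libraries all lay above the 3 WT libraries, and the gene rose by a log2 fold change of 0.60 (SE 0.0710, adjusted p = 4.96e-05, edgeR quasi-likelihood F test with Benjamini-Hochberg adjustment over 13253 genes). Itga7 had 406, 427 and 401 CPM in ST hearts, against 467, 496 and 494 CPM in WT hearts. Here every ST library lay below every WT library, and the gene fell by 0.24 on the log2 scale (SE 0.0641, adjusted p = 0.0117, edgeR). Leaving out ST replicate 1 (adjusted p = 0.0524, edgeR), ST replicate 3 (0.0543) or WT replicate 2 (0.0515) ended that call. Itgb1, the beta partner of both alpha subunits, had 548.5, 477 and 516 CPM in ST hearts, against 380, 385 and 373 CPM in WT hearts. Its libraries did not overlap between the groups, with a log2 fold change of 0.44 (SE 0.0686, adjusted p = 0.000364, edgeR).

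Of the proteins behind the receptors, talin 1 and melusin rose at the mRNA level. Tln1, the talin found in most cell types, had 397, 334 and 396.5 CPM in ST hearts, against 298, 269 and 297 CPM in WT hearts. The lowest ST library, replicate 2, was still above the highest WT library, and the log2 fold change was 0.39 (SE 0.0806, adjusted p = 0.00258, edgeR). In the rat assembly GRCr8 the Tln1 gene overlaps Creb3, which rose by 0.50 (adjusted p = 0.00121, edgeR) with a mean of 364 counts. It also overlaps LOC134486933, which rose by 0.94 (adjusted p = 0.0245, edgeR) with a mean of 41.3 counts. No source used here says whether counting used the strand, so shared reads cannot be told apart. Itga7, Itgb1, Itgb1bp2, Tln2, Ilk and Lims2 also overlap other genes in that assembly. Among these, Taf10, which overlaps Ilk, had a mean of 181 counts at 6 months and did not pass (log2 difference 0.11, adjusted p = 0.455, edgeR). Itgb1bp2 had 156, 155 and 168 CPM in ST hearts, against 124, 128 and 138 CPM in WT hearts. All ST libraries were the higher ones (log2 fold change 0.30, SE 0.0703, adjusted p = 0.00511, edgeR). Tln2, the talin that prevails in adult heart muscle, had 149.5, 141.5 and 146 CPM in ST hearts, against 130.1, 140.5 and 137 CPM in WT hearts. The groups did not overlap, though their nearest libraries were almost level, and the log2 difference of 0.10 did not pass the test (adjusted p = 0.241, edgeR).

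The other 4 genes did not pass at 6 months. Vcl had 384, 433 and 391 CPM in ST hearts, against 373, 387 and 370 CPM in WT hearts, and the groups overlapped (log2 difference 0.10, 95% interval -0.03 to 0.23). Ilk ranged from 70.5 to 73.8 CPM in ST hearts, against 72.4 to 75.9 CPM in WT hearts. Parva ranged from 72.7 to 79.4 CPM in ST hearts, against 67.9 to 83.95 CPM in WT hearts, and Lims2 from 254 to 285 CPM in ST hearts, against 239.5 to 263 CPM in WT hearts. Thus 4 of the 10 genes rose and 1 fell, where 40% of all genes tested passed, 19.9% of them higher and 20.1% lower. A share of 5 of 10 is near that background. The 10 genes had a median log2 fold change of 0.10, against -0.0016 over all genes. Their libraries did not overlap between ST and WT for 6 genes, 5 above and 1 below, where 51.7% of all genes did not overlap. Without both libraries that stood apart, a choice made after seeing the data, the count was again 4 higher and 1 lower.

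**Figure D1:**
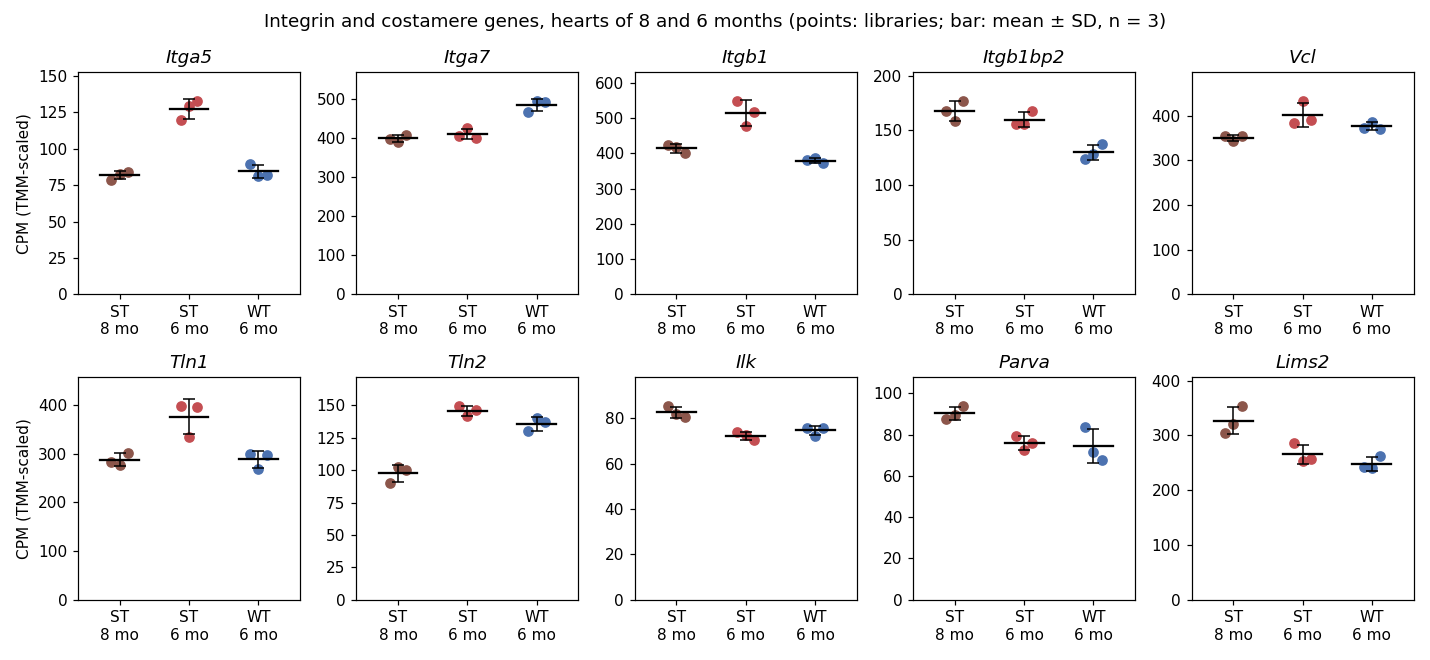
CPM with TMM scaling (y axis, from 0) of each gene in ST hearts of 8 months, ST hearts of 6 months and WT hearts of 6 months. Points are libraries and bars the mean ± SD (n = 3). Examples are Itga5, Itgb1 and Tln1, highest in ST hearts of 6 months, Tln2, lowest in ST hearts of 8 months, and Lims2 and Parva, highest there.

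At 8 months the ST hearts were set against the ST hearts of 6 months and against the WT hearts of 6 months. These comparisons share libraries with each other and with that of 6 months, so their values are given side by side and are not independent. Time is confounded with the table in both. Against ST hearts of 6 months, 3 genes rose and 5 fell, where 39.6% of all genes passed (19.1% higher and 20.5% lower). Against WT hearts of 6 months, 3 genes rose and 2 fell, where 33.9% passed (17.8% higher and 16.1% lower). Libraries did not overlap for 8 of the 10 genes in each of these comparisons, where 51.1% of all genes did not overlap in the first and 46.8% in the second.

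Among the receptors, Itga5 had 78.9, 82.7 and 84.0 CPM in ST hearts of 8 months, all below the lowest ST library of 6 months at 119.8 CPM. It fell by 0.64 on the log2 scale against ST hearts of 6 months (SE 0.0689, adjusted p = 1.28e-05, edgeR), and its difference from WT hearts of 6 months was -0.03 (95% interval -0.17 to 0.11). Itgb1 had 422, 418 and 400.5 CPM in ST hearts of 8 months. It fell by 0.31 against ST hearts of 6 months (SE 0.0618, adjusted p = 0.00151, edgeR). LOC134483511, whose gene overlaps Itgb1, fell by 1.09 in the same comparison at a mean of 17 counts (adjusted p = 0.0171, edgeR). Against WT hearts of 6 months the 3 libraries were all higher for Itgb1, but the log2 difference of 0.14 did not pass (adjusted p = 0.0926, edgeR). Itga7 had 398.5, 391 and 408.5 CPM in ST hearts of 8 months, within or just under the 401 to 427 CPM of ST hearts of 6 months (log2 difference -0.04, adjusted p = 0.568, edgeR). Against WT hearts of 6 months it fell by 0.27 (SE 0.0618, adjusted p = 0.00306, edgeR), with no overlap.

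Talins and vinculin fell in ST hearts of 8 against 6 months, and melusin did not pass. Tln2 had 90.3, 102.4 and 100 CPM in ST hearts of 8 months, below every library of 6 months of either kind. It fell by 0.58 against ST hearts of 6 months (SE 0.0679, adjusted p = 2.68e-05, edgeR) and by 0.47 against WT hearts of 6 months (SE 0.0716, adjusted p = 0.000115, edgeR), so it was the one member lower against both groups by the test. Tln1 had 283, 277 and 302 CPM in ST hearts of 8 months. It fell by 0.39 against ST hearts of 6 months (SE 0.0722, adjusted p = 0.00100, edgeR), while its log2 difference from WT hearts of 6 months was 0.01 (95% interval -0.12 to 0.14) with overlapping libraries. Creb3, whose gene overlaps Tln1, fell by 0.36 against ST hearts of 6 months (adjusted p = 0.00256, edgeR). LOC134486933, which also overlaps Tln1, fell by 0.78 in the same comparison (adjusted p = 0.0437, edgeR). Vcl had 355, 343 and 355 CPM in ST hearts of 8 months and fell by 0.20 against ST hearts of 6 months (SE 0.0627, adjusted p = 0.0226, edgeR), a call lost when libraries were scaled by total counts alone (adjusted p = 0.0839) or without ST replicate 2 of 8 months (adjusted p = 0.0844). Its 3 libraries also lay below all WT libraries of 6 months, with a log2 difference of -0.09 that did not pass (adjusted p = 0.272, edgeR). Itgb1bp2 had 168, 158.5 and 177 CPM in ST hearts of 8 months, overlapping the ST libraries of 6 months (log2 difference 0.07) and above all WT libraries of 6 months, with a rise of 0.38 (SE 0.0699, adjusted p = 0.000535, edgeR).

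The 3 genes of the ILK complex rose in ST hearts of 8 against 6 months. Lims2, which encodes the PINCH adaptor of that complex, had 305, 321 and 353 CPM in ST hearts of 8 months, above the 254 to 285 CPM of ST hearts and the 239.5 to 263 CPM of WT hearts of 6 months. It rose by 0.30 against ST hearts of 6 months (SE 0.0698, adjusted p = 0.00462, edgeR) and by 0.41 against WT hearts of 6 months (SE 0.0710, adjusted p = 0.000361, edgeR). Parva, the actin-binding parvin of the complex, had 87.7, 89.5 and 93.8 CPM in ST hearts of 8 months, above every library of 6 months. It rose by 0.25 against ST hearts of 6 months (SE 0.0680, adjusted p = 0.0107, edgeR) and by 0.29 against WT hearts of 6 months (SE 0.0810, adjusted p = 0.0108, edgeR). Leaving out ST replicate 3 of 8 months ended both calls (adjusted p = 0.0529 and 0.0561), as did leaving out WT replicate 3 for the second (0.0546). Ilk, the scaffold itself, had 85.4, 82.15 and 80.4 CPM in ST hearts of 8 months and rose by 0.19 against ST hearts of 6 months (SE 0.0673, adjusted p = 0.0392, edgeR). The call on Ilk was weak: it was lost in DESeq2 (adjusted p = 0.161), without the filter on low counts (0.146) and in 5 of 6 fits that left out a library. Against WT hearts of 6 months the log2 difference of Ilk was 0.16 and did not pass (adjusted p = 0.0922, edgeR), with no overlap between libraries.

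**Figure D2:**
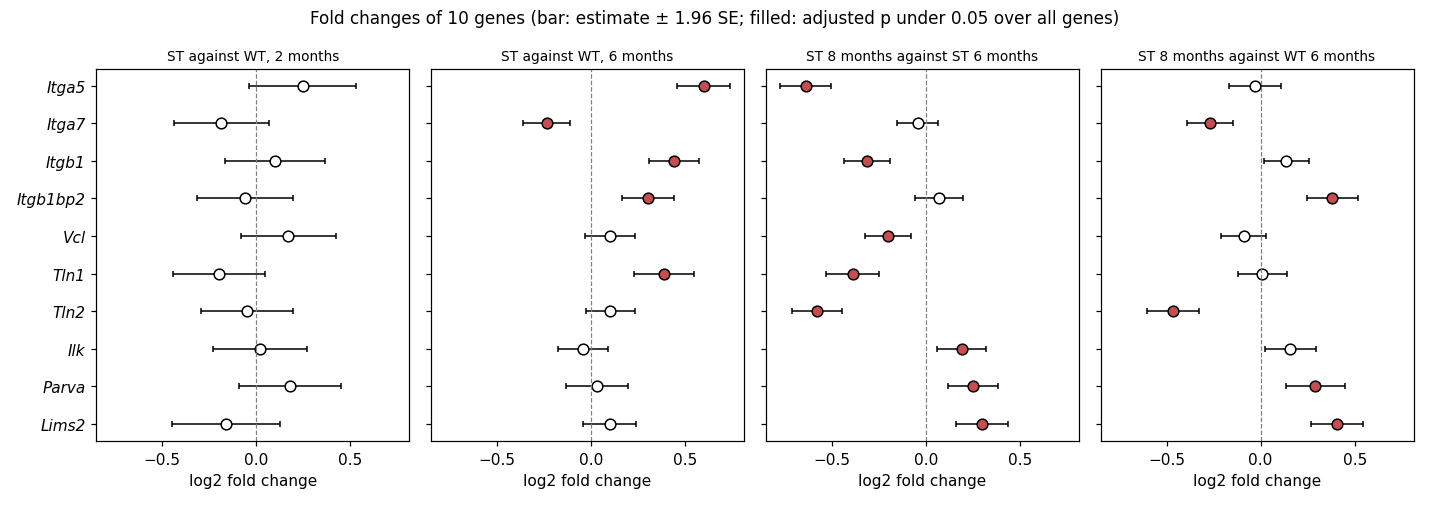
Log2 fold change (x axis) of each gene (rows) in 4 comparisons, with bars for the 95% interval. Filled points passed an adjusted p of 0.05 over all genes: 0 of 10 at 2 months, 5 at 6 months, 8 for ST hearts of 8 against 6 months and 5 for ST hearts of 8 months against WT hearts of 6 months.

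At 2 months no member passed. The edgeR test called 0 of 10 genes, 0 had an unadjusted p under 0.05 and DESeq2 also called 0, where 4.8% of all genes passed in edgeR (2.7% higher and 2.1% lower). With 2 libraries a group the SE lay between 0.124 and 0.146, against 0.0641 to 0.0849 at 6 months. Itga5 had 116.1 and 155.7 CPM in ST hearts, against 116.1 and 112.3 CPM in WT hearts. One ST library was thus level with a WT library and the other far above both, with a log2 difference of 0.25 (95% interval -0.04 to 0.53). Itga7 had 217 and 249 CPM in ST hearts, against 267 and 263 CPM in WT hearts, with no overlap and a difference of -0.19 that did not pass (adjusted p = 0.477, edgeR). Itgb1 had 415 and 350.4 CPM in ST hearts, against 381 and 333 CPM in WT hearts, which overlapped.

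Tln1 had 339 and 340 CPM in ST hearts of 2 months, against 403 and 376.5 CPM in WT hearts. Both ST libraries were the lower ones, and the log2 difference of -0.20 did not pass. Vcl had 466 and 459 CPM in ST hearts, against 386 and 437 CPM in WT hearts, and Parva had 51.2 and 47.2 CPM in ST hearts, against 40.6 and 46.7 CPM in WT hearts. These were the genes whose ST libraries were both the higher ones, while those of Itga7, Tln1 and Tln2 were both the lower ones. Tln2 had 197 and 191 CPM in ST hearts, against 200.8 and 201 CPM in WT hearts. Lims2 had 128.5 and 169 CPM in ST hearts, against 156 and 177 CPM in WT hearts. Itgb1bp2 and Ilk differed by -0.06 and 0.02 on the log2 scale. The libraries of 5 of the 10 genes did not overlap between the groups, where 48.9% of all genes did not.

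**Figure D3:**
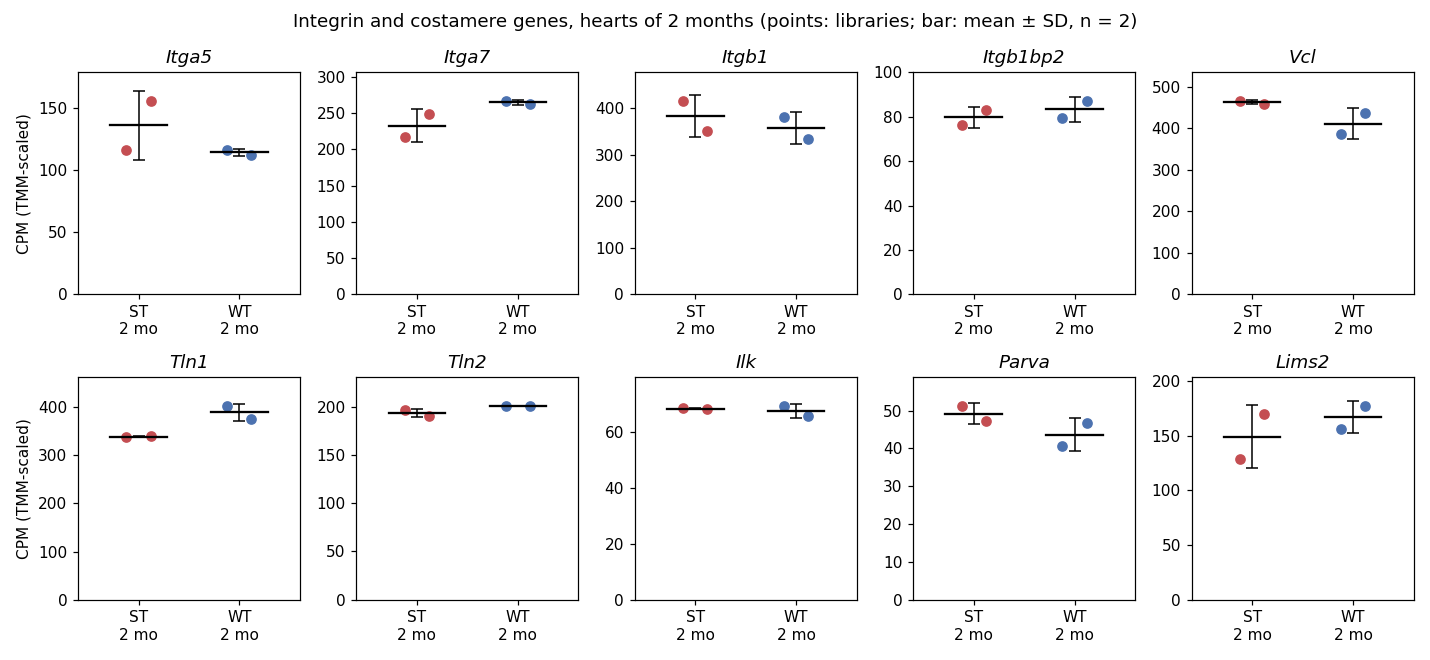
CPM with TMM scaling (y axis, from 0) of each gene in ST and WT hearts of 2 months. Points are libraries and bars the mean ± SD (n = 2). Vcl and Parva are higher and Itga7, Tln1 and Tln2 lower in both ST libraries, and the rest overlap.

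The ST effect was compared between times in 1 model, as the effect at 6 months minus that at 2 months. Time is confounded with the table here too, so a difference of the effects can come from either. The tables do not hold the same names: LOC134486933, which overlaps Tln1, is missing from that of 2 months. Only Tln1 passed, with a difference of 0.58 on the log2 scale (SE 0.134, adjusted p = 0.00602, edgeR), set by an effect of 0.39 at 6 months and -0.20 at 2 months. That is 1 of 10 genes, where 22.2% of all genes passed (10.2% higher and 12% lower). Itgb1bp2 differed by 0.35 (adjusted p = 0.0571), Itga5 by 0.34 (0.127) and Itgb1 by 0.33 (0.101), none of them past the threshold in edgeR. A call at 6 months and none at 2 months is therefore not shown to be a difference between times for these 3 genes. Leaving out ST replicate 2 of 2 months brought Itga5, Itgb1bp2 and Lims2 past the threshold, and leaving out ST replicate 1 of 2 months brought in Itgb1, so the counts were 4 and 2 genes. Creb3, which overlaps Tln1, also passed with 0.66 (adjusted p = 0.00638, edgeR).

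Ratios of 2 related genes within a library do not depend on how libraries were scaled. At 6 months the ratio of Itga5 to Itga7, the fibronectin over the laminin alpha subunit, was higher in every ST library than in every WT library, with a log2 difference of 0.83. At 8 months it was lower than in ST hearts of 6 months by 0.59, with no overlap, and above WT hearts of 6 months by 0.24. Melusin relative to its binding partner Itgb1 was lower in every ST library than in every WT library of 6 months, by 0.14, and at 8 months stood above both groups of 6 months, by 0.38 against ST and 0.24 against WT hearts. The ratio of Tln1 to Tln2 was above WT hearts of 6 months in ST hearts of 6 months (0.28) and of 8 months (0.48). All of these have p = 0.1 in an exact two-sided permutation test, the smallest p that 3 against 3 libraries can give, and adjusted p from 0.1 to 0.167 over 5 ratios in each comparison.

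The ILK complex can be built with other family members. Lims1 encodes the other PINCH protein and Parvb the other parvin of the heart. At 6 months Lims1 (0.24, adjusted p = 0.0167, edgeR) and Parvb (0.21, adjusted p = 0.0232) rose in ST over WT hearts, while Lims2 and Parva did not pass. In ST hearts of 8 against 6 months Lims1 fell by 0.30 (adjusted p = 0.0044) and Parvb by 0.38 (adjusted p = 0.000422), while Lims2 and Parva rose. Within a library, Lims2 counts were 2.41, 2.31 and 2.59 times those of Lims1 in ST hearts of 8 months, against 1.76, 1.45 and 1.64 times in ST hearts and 1.70, 1.79 and 1.83 times in WT hearts of 6 months. Parva counts were 0.475, 0.474 and 0.517 times those of Parvb in ST hearts of 8 months, against 0.324, 0.323 and 0.304 times in ST hearts and 0.411, 0.345 and 0.322 times in WT hearts of 6 months. Neither ratio is corrected for gene length, so its size does not compare the 2 genes, only the libraries. Both ratios were higher in all ST libraries of 8 months than in all 6 libraries of 6 months (log2 differences of 0.59 and 0.62 against ST hearts, and 0.46 and 0.45 against WT hearts, exact permutation p = 0.1 each). At 2 months none of the 5 ratios could fall below the smallest p of 0.333 that 2 against 2 libraries allow.

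**Figure D4:**
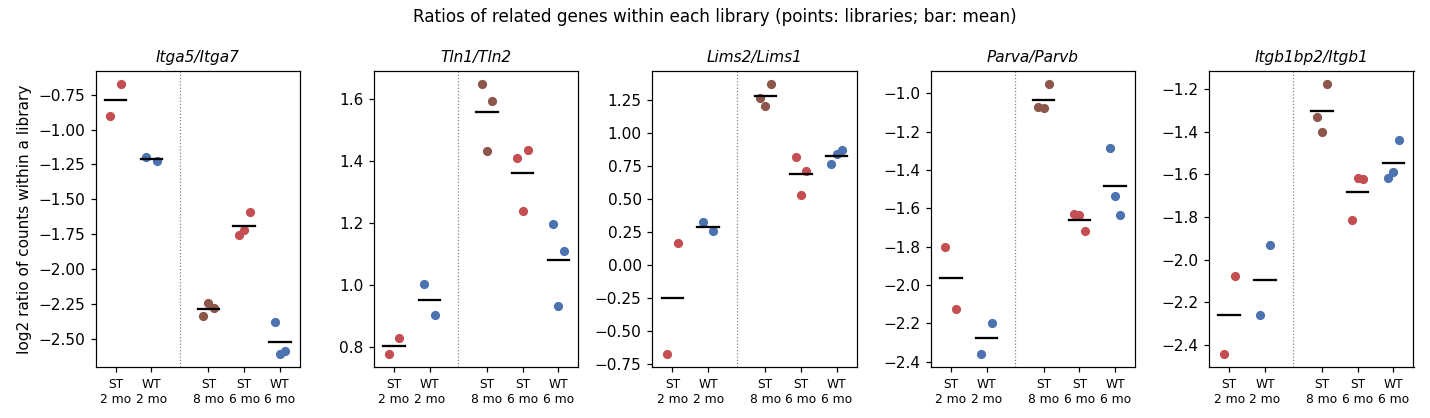
Log2 ratio of counts of 2 related genes within a library (y axis, a separate range in each panel). Points are libraries, bars means, and the dotted line parts the table of 2 months, which is not compared with the later ones. The ratios Lims2/Lims1 and Parva/Parvb stand highest in the 3 ST libraries of 8 months, and Itga5/Itga7 is higher in all ST than in all WT libraries of 6 months.

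The wider adhesion machinery was read from lists of related genes. The lists were chosen with earlier results of these data known, so an excess over all genes describes them and is no independent support. Of 43 other focal adhesion genes tested at 6 months, 22 rose and 2 fell in ST over WT hearts, where 19.9% of all genes were called higher and 20.1% lower, with a median log2 fold change of 0.21, against -0.0016 over all genes. Nedd9, a docking protein of integrin signalling, averaged 107 ± 15.9 CPM in ST hearts, against 29.5 ± 0.462 CPM in WT hearts (SD, n = 3 each), a rise of 1.86 (SE 0.106, adjusted p = 1.11e-07, edgeR). Flna, whose product filamin A ties beta integrin tails to actin, rose by 0.86, and Tns3, a tensin, fell by 0.70. Of 16 genes of spectrins, ankyrins and filament linkers, which carry the membrane skeleton of the costamere, 11 rose and 2 fell, with a median of 0.31. Sptan1, alpha spectrin, averaged 632 ± 9.05 CPM in ST hearts, against 377 ± 16.9 CPM in WT hearts (SD, n = 3 each), and both it and Csrp3, the muscle LIM protein, rose by 0.75. When libraries were scaled by total counts alone, which moved the median of all genes to -0.12, 18 focal adhesion genes rose and 4 fell, and 9 of the linker genes rose and 2 fell.

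The dystrophin complex, the other anchor of the costamere, did not move one way at 6 months: 3 of 22 genes rose, with Dtna (0.32), and 4 fell, with Sspn (-0.52) and Sgcd (-0.50). Of 13 other integrin subunits, 2 rose and 2 fell. Itga2, a collagen receptor subunit, had a log2 fold change of 1.93 at a low level (4.96 ± 0.847 CPM in ST hearts, against 1.28 ± 0.314 CPM in WT hearts), and Itgb3 rose by 1.01, while Itga11 and Itga4 fell by 0.98 and 0.81, also at low levels. Of 6 leukocyte and platelet integrins 0 passed in edgeR and 0 had an unadjusted p under 0.05. Of 21 matrix ligands 6 rose and 1 fell. The calls in the ligands, the dystrophin complex (7 of 22) and the other integrin subunits (4 of 13) were not more frequent than the 40% over all genes. These splits changed when libraries were scaled by total counts alone. Then 4 ligands rose and 4 fell, 2 dystrophin complex genes rose and 5 fell, and 2 other integrin subunits rose and 4 fell. Lama5, the laminin alpha5 chain, averaged 352 ± 32.1 CPM in ST hearts, against 83.6 ± 8.91 CPM in WT hearts (SD, n = 3 each), a rise of 2.08 (SE 0.0917, adjusted p = 1.31e-08, edgeR), and the basement membrane genes Col4a1, Col4a2 and Lamc1 rose by 0.71, 0.57 and 0.30.

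In ST hearts of 8 against 6 months, where 19.1% of all genes were called higher and 20.5% lower, the counts differed between lists. They share the ST libraries of 6 months with the counts above and are not independent of them. Of 43 focal adhesion genes 2 rose and 21 fell (median -0.25, against 0.02 over all genes), of 16 spectrin, ankyrin and linker genes 0 rose and 12 fell in edgeR (median -0.26), and all 16 had a fold change below 0. Nedd9 fell by 1.97, Sptan1 by 0.76 and Sptbn1, a beta spectrin, by 0.54. Of 12 other integrin subunits 6 fell and 1 rose: Itga6, a laminin receptor subunit, averaged 158 ± 10.4 CPM in ST hearts of 8 months, against 87.0 ± 9.20 CPM in ST hearts of 6 months (SD, n = 3 each), a rise of 0.86 (SE 0.0836, adjusted p = 5.69e-06, edgeR). Of 20 ligands 8 fell and 2 rose, with Lama5 at 106 ± 12.2 CPM in ST hearts of 8 months where it fell by 1.73. The dystrophin complex had 2 genes higher, with Cav3 (0.31), and 3 lower of 21, with Dtna (-0.70). With total counts alone, 5 dystrophin complex genes were higher and 2 lower, and 3 ligands rose and 6 fell. Of the focal adhesion genes 4 then rose and 20 fell, and of the linker genes 0 rose and 12 fell. Of 6 leukocyte and platelet integrins 1 rose and 1 fell: Itgal, the alpha subunit of a lymphocyte integrin, averaged 7.94 ± 0.686 CPM in ST hearts of 8 months, against 2.24 ± 0.730 CPM in ST hearts of 6 months (SD, n = 3 each), a rise of 1.79, and Itgax, found on myeloid cells, fell by 0.69. Against WT hearts of 6 months, ST hearts of 8 months had 12 focal adhesion genes higher and 5 lower of 43, 5 linker genes higher and 5 lower of 16, and 3 dystrophin complex genes higher and 9 lower of 22. With total counts alone, 10 focal adhesion genes were higher and 9 lower there, and 4 linker genes were higher and 7 lower. Sync, syncoilin of the filament anchors, rose by 0.66 and Ank2, ankyrin-B, fell by 0.65 in that comparison, and Itga6 rose by 0.64. Itgal rose by 1.64 and Itgax fell by 0.97 against WT hearts. In that comparison 17.8% of all genes were called higher and 16.1% lower.

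**Figure D5:**
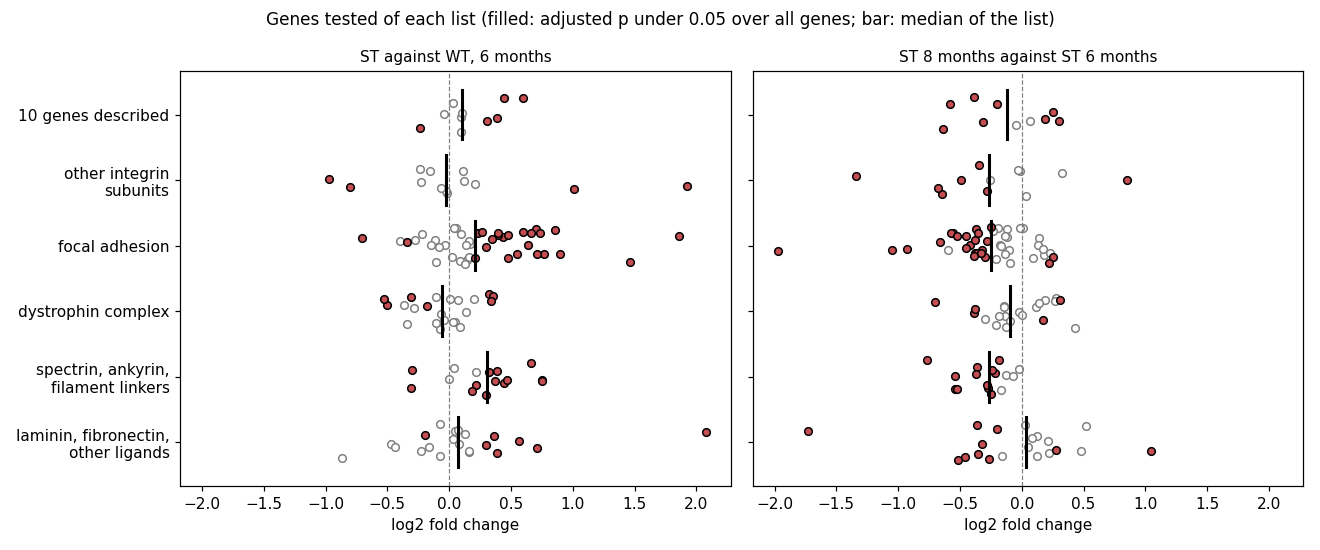
Log2 fold change (x axis) of each gene tested of 6 lists (rows) in ST against WT hearts of 6 months (left) and in ST hearts of 8 against 6 months (right). Filled points passed an adjusted p of 0.05 over all genes and bars mark list medians, which for focal adhesion genes are 0.21 on the left and -0.25 on the right.

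At 2 months few listed genes passed. Nedd9 rose by 0.70 and Lama5 and Fn1, fibronectin, the ligand of the alpha5 integrin, rose by 0.88 and 0.71 in ST over WT hearts. Itga6 fell by 0.52, Tns3 by 0.67 and Sntb1, a syntrophin, by 0.89. In all, 3 of 42 focal adhesion genes rose and 1 fell, 2 of 22 ligands rose, and of 16 spectrin, ankyrin and linker genes 0 passed in edgeR (2 at an unadjusted p under 0.05), where 4.8% of all genes passed. Itgal rose by 1.30, with 7.48 ± 0.600 CPM in ST hearts, against 3.13 ± 1.11 CPM in WT hearts (SD, n = 2 each), the 1 gene of 6 leukocyte and platelet integrins to pass.

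Markers of other cell types moved in some of these comparisons. Over all genes, 19.9% were called higher and 20.1% lower at 6 months. In ST hearts of 8 against 6 months 19.1% were called higher and 20.5% lower. Smooth muscle and pericyte markers summed to 292 to 436.5 CPM in ST hearts, against 225 to 306 CPM in WT hearts of 6 months, and 4 of 7 rose with 0 lower. That range was 299 to 561.5 CPM in ST hearts of 8 months. Endothelial markers summed to 1041 to 1149 CPM in ST hearts of 8 months, 813 to 986 CPM in ST hearts and 715 to 918 CPM in WT hearts of 6 months, and 3 of 6 rose in ST hearts of 8 against 6 months. Fibroblast markers, of which 2 rose and 3 fell of 6 at 6 months, summed to 815 to 901 CPM in ST hearts, against 898.5 to 935 CPM in WT hearts. Erythroid markers summed to 670 to 745 CPM in ST hearts, against 372 to 495 CPM in WT hearts of 6 months, with 5 of 5 higher. The table of 2 months held only 3 of these 5, which summed to 301 to 394 CPM in ST hearts, against 145 to 179 CPM in WT hearts. Of those 3 only Hba-a2 was called higher there, and Slc4a1 averaged 33.8 CPM in ST hearts, against 32.7 CPM in WT hearts. Macrophage markers summed to 111 to 147 CPM in ST hearts, against 118.5 to 156 CPM in WT hearts of 6 months, and to 92.5 to 105 CPM in ST hearts of 8 months, below every library of 6 months. In ST hearts of 8 against 6 months 3 of 7 macrophage markers fell, with Mrc1 by 1.48 and C1qb by 0.85, and 0 rose. Of the mesothelial markers, Msln and Upk3b were called higher in ST than WT hearts of 2 months and lower in ST than WT hearts of 6 months, and both were also lower in the difference between times in which Tln1 passed. Their levels were low: Msln had 57 and 11 counts in ST hearts, against 1 and 1 in WT hearts of 2 months, and 2, 12 and 0 counts in ST hearts, against 22, 42 and 68 in WT hearts of 6 months. Wt1, another mesothelial marker, went the other way at 6 months, with a rise of 0.89 (adjusted p = 6.84e-05, edgeR). It also rose by 0.70 in ST hearts of 8 months against WT hearts of 6 months (adjusted p = 0.000573, edgeR). Mesothelial markers summed to 29.4 to 32.5 CPM in ST hearts, against 22.9 to 35.0 CPM in WT hearts of 6 months. Single marker genes were picked for mention after their values were seen. Markers of T, B and NK cells summed to 3.47 CPM at most in a library, with Ms4a1 at 0 in all libraries of 6 and 8 months. The part of these cell types in the values of the 10 genes was not tested.

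Genes with the pattern most like Itga5 over the 9 libraries of 6 and 8 months, among 9284 genes, were P4ha1, which encodes a collagen prolyl hydroxylase (Pearson r = 0.991), Jun, a transcription factor of the AP-1 family (0.991), Pvr, the poliovirus receptor (0.990), and Hspa1b, an inducible heat shock protein (0.988) whose near-identical copy makes its counts uncertain. Those most like Itgb1 included Akap12 (0.987), Ppp1r12c (0.986) and Isyna1 (0.982). The 9 libraries form 3 groups, so these values mostly describe differences between groups, and a p is not given.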

How the data were processed

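Bulk RNA of 13 rat heart libraries was analysed, in 1 table for each of 2, 6 and 8 months. The values are expected counts per gene, deposited by the authors without scaling. The aligner, counter and strand setting are not given in the sources used here, and the submitters' processing notes list the builds GRCm38 and mm10, which are mouse builds, while the gene names are those of rat. Gene length is not used, so levels are not compared between genes.

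Rounded to whole numbers, they were fitted for each comparison over its libraries alone, with filterByExpr, TMM scaling and the edgeR 4.0.16 quasi-likelihood F test (R 4.3.3), adjusted by Benjamini-Hochberg over all genes tested, with a threshold of 0.05. The SE was taken as |log2 fold change| over the root of F, and 95% intervals are normal intervals from that SE. CPM are TMM-scaled, within the table of 2 months or over the 9 later libraries. Levels of 2 months were not compared with later ones. Ratios used counts plus 0.5 and exact permutation tests. The fit was tested on simulated data. Alternatives were DESeq2 1.42.0, its size factors, total counts alone, no filter, a replicate block, 1 fit over 9 libraries, and each library left out. Depth was 6.54 to 11.3 M counts at 2 months, 6.72 to 8.49 M at 6 months and 4.70 to 5.57 M at 8 months. The edgeR p-values set a group difference against the spread between these samples.

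The 10 genes and the lists were chosen with earlier results of these data known. All 10 genes are described. From each list, up to 4 called genes are named at 6 months and up to 2 in other comparisons, by the smallest p. Lims1 and Parvb are named as family partners. Some genes that this rule names are not reported here.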

Additional observations from a re-analysis of the deposited data

Results flagged for a closer look

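The ST effect on Tln1 differed between 2 and 6 months by a test of the difference itself, in which time and table cannot be told apart. It was 0.39 at 6 months and -0.20 at 2 months on the log2 scale, a difference of 0.58 (SE 0.134, adjusted p = 0.00602, edgeR), with all 3 ST libraries above all 3 WT libraries at 6 months and both ST libraries below both WT libraries at 2 months. The overlapping gene Creb3 differed by 0.66 (adjusted p = 0.00638, edgeR). The cause was not tested.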

How the results depend on the processing

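Of 610 values of single genes under alternatives, 570 kept their direction and their side of the threshold, 15 lost it, 8 gained it and 17 reversed, all of the last in genes that did not pass. Counts of the 10 genes at 6 months and in both comparisons of 8 months stayed within 1.5 times under every alternative run, with 4 to 5, 6 to 8 and 4 to 5 genes when a library was left out. At 2 months the count was 0 to 1 with a library left out: Itga5 passed without ST replicate 1 (0.44, adjusted p = 0.0209, edgeR) and Lims2 without ST replicate 2 (-0.37, adjusted p = 0.0493). The difference between times gave 1 to 4 genes with a library left out and 2 genes with a replicate block, which added Itgb1bp2. Correlations of deviations between same-numbered libraries ran from 0.004 to 0.178, and those between different numbers from -0.111 to 0.066. Such values cannot settle whether replicate numbers pair the samples, which were treated as unpaired in the main fits. The block changed no other call of the 10 genes.

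With a library left out, differences that crossed 0 ranged at 2 months from -0.0307 to 0.2176 for Itgb1, from -0.0292 to 0.0611 for Ilk, from -0.3724 to 0.0227 for Lims2 and from -0.3432 to 0.0220 for the ratio of Itgb1bp2 to Itgb1. The reversal came without ST replicate 1 for Lims2, without WT replicate 2 for Ilk (-0.0292), and without either for Itgb1 (-0.0307 and -0.0029) and the ratio (0.0220 and 0.0032). Parva at 6 months ranged from -0.0385 (WT replicate 3 left out) to 0.1178. In ST hearts of 8 months against WT hearts, Itga5 ranged from -0.0552 to 0.0043 (WT replicate 1 left out) and Tln1 from -0.0370 to 0.0347, below 0 without WT replicate 2 or ST replicate 3 (-0.0260), and at -0.0026 in 1 fit over 9 libraries. In the difference between times, Vcl ranged from -0.1725 to 0.0019 (WT replicate 1 of 2 months left out) and Itga7 from -0.1542 to 0.0358 (ST replicate 2 of 2 months left out). With total counts alone, Vcl (-0.0155), Tln2 (-0.0113), Parva (-0.0852) and Lims2 (-0.0162) reversed at 6 months, Itga7 (0.0175) in ST hearts of 8 against 6 months, and Tln1 (-0.0549) in ST hearts of 8 months against WT hearts, where Vcl passed as lower (adjusted p = 0.0481, edgeR). The cause was not tested.

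Over all genes, the calls at 2 months numbered 582, against 1019 without the filter, 359 in DESeq2, 271 without WT replicate 1 and 2013 without ST replicate 2, and the difference between times gave 2811, against 1558 without WT replicate 1 of 2 months. Total counts alone changed the split of higher and lower genes at 6 months to 1731 and 3714, against 2643 and 2662, in ST hearts of 8 against 6 months to 3072 and 2140, against 2464 and 2651, and in ST hearts of 8 months against WT hearts to 1880 and 2856, against 2329 and 2112. For the difference between times it was 1005 and 1893, against 1294 and 1517. The 2 libraries a group at 2 months limit what can be seen there.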
